A study of Mus musculus with 61 samples.

Results

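Sox2 binding was compared between mouse fibroblasts carrying a hairpin against Chaf1a (Chaf1a.2122) and fibroblasts carrying a control hairpin against Renilla luciferase, both at day 3 of reprogramming. All positions of both deposited binding lists were pooled, and neighbours within 200 bp were joined into 1 site. This gave 23456 sites, out of 25432 when the list of the other Chaf1a hairpin of the series (Chaf1a.166) was pooled as well. A site was classed as held by both lists, by the Chaf1a.2122 list only or by the Renilla list only. All cells were fibroblasts of embryonic day 13.5 from the strain Black6-129X1/SvJ with the genotype Col1a1::tetOP-OKSM ; R26-M2rtTA. In these cells doxycycline (2 ug/ml) switches on a cassette of reprogramming factors, Oct4, Klf4 and Sox2 among them, in every cell type that expresses the R26 activator, so controls and knockdown cells alike carried induced Sox2 beside any endogenous Sox2. They were grown in serum and LIF with ascorbate, and chromatin was precipitated with a goat polyclonal antibody to Sox2. Each hairpin had 1 immunoprecipitate and 1 input. There was therefore no replicate spread and no test between hairpins, and intervals cover counting error only. How far Chaf1a was depleted was not checked here, and neither was the fibroblast label, since binding positions hold no expression values. In such bulk chromatin, binding in more cells and stronger binding in each cell cannot be told apart.

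Sox2 is a high-mobility-group transcription factor that bends DNA at short motifs of the form ACAAAG or ACAATG, and it often binds beside Oct4, whose octamer is ATGCAAAT. Chaf1a is the large subunit of CAF-1, the histone chaperone that deposits H3 and H4 on newly replicated DNA. During reprogramming, Sox2 has to find its sites in the chromatin of a fibroblast, where AP-1 factors, which bind TGACTCA, hold many of the active enhancers.

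The promoters below are shown because their genes had the best-ranked sites of each class inside the sequence window. They also let a reader see the motifs that are counted, after the distances, over promoters with a site within 500 bp of a start. They are RefSeq promoters of build GRCm38.p6, 300 bases long, from 250 bases before the RefSeq start to 50 after it, 5′ to 3′ on the strand of the gene. Binding positions are of mm9 and were not converted. A promoter was taken where the gene had 1 RefSeq start, and where the site lay within the same window around the start that the mm9 table lists for that gene. Capitals mark 4 motifs on either strand: ACAAAG (reverse complement CTTTGT), the related ACAATG (reverse complement CATTGT), the octamer ATGCAAAT (reverse complement ATTTGCAT) and the AP-1 motif TGACTCA (reverse complement TGAGTCA).
The 3 best such sites held by both lists belonged to Nrarp (chr2:25180508-25180807, + strand, a regulator of Notch signalling), Pipox (chr11:77893823-77894122, - strand, a peroxisomal oxidase) and Mobp (chr9:120149492-120149791, + strand, a myelin protein).
Nrarp: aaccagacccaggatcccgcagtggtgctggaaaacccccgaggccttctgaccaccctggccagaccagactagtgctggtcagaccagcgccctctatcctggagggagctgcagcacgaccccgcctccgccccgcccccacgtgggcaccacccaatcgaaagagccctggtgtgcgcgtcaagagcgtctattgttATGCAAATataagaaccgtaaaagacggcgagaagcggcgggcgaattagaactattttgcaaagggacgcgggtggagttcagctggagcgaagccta
Pipox: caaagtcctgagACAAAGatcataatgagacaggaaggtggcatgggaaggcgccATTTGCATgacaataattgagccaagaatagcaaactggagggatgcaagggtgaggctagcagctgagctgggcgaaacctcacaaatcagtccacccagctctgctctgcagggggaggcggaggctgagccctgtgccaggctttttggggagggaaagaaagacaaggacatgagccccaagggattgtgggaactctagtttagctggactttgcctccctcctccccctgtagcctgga
Mobp: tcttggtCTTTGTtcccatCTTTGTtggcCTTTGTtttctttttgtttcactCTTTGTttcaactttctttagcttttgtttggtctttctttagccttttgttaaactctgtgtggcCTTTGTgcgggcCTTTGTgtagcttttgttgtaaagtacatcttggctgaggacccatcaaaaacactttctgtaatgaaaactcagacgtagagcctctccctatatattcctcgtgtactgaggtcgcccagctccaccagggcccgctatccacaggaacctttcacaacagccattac
The 3 best of Chaf1a.2122 only belonged to Hist1h4c (chr13:23698409-23698708, - strand, a replication-dependent H4 gene), Ifnar1 (chr16:91484965-91485264, + strand, a chain of the type I interferon receptor) and Traf7 (chr17:24527889-24528188, - strand, an E3 ubiquitin ligase).
Hist1h4c: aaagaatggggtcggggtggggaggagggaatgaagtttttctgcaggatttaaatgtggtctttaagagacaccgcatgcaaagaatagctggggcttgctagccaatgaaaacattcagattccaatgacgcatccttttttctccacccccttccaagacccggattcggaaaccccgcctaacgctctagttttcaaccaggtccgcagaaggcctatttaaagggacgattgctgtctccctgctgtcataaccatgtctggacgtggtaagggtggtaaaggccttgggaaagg
Ifnar1: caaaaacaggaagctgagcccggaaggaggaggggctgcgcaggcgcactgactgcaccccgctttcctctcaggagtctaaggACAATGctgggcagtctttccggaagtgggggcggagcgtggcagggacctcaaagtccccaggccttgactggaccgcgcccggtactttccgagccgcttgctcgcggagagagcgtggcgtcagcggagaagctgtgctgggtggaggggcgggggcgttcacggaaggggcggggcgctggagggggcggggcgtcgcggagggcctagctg
Traf7: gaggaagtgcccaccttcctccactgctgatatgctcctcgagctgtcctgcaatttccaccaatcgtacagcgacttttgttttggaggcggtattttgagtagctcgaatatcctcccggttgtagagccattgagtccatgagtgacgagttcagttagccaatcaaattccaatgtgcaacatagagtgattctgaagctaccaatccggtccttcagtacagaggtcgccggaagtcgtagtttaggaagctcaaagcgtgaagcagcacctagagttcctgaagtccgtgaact
The 3 best of Renilla only belonged to Rps7 (chr12:28635904-28636203, - strand, a protein of the small ribosomal subunit), Nras (chr3:103058035-103058334, + strand, a small GTPase) and Enoph1 (chr5:100039744-100040043, + strand, an enzyme of methionine salvage).
Rps7: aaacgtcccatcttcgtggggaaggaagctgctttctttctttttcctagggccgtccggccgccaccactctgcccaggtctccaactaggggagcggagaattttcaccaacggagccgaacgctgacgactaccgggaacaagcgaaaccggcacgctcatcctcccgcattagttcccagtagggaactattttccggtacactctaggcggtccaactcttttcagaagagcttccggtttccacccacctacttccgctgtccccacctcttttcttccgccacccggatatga
Nras: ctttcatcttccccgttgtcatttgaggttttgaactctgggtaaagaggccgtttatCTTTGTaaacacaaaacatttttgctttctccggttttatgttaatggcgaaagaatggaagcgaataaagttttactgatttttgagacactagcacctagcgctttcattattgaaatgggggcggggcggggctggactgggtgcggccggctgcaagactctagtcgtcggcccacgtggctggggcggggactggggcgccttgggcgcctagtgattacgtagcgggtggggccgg
Enoph1: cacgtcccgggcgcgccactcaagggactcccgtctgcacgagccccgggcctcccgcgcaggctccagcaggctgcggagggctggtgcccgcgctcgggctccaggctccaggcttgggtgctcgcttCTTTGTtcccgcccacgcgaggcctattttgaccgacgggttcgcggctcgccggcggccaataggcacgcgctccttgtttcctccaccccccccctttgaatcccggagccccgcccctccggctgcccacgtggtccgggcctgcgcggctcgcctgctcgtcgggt
The Mobp promoter held 6 matches of CTTTGT, that of Pipox 1 ACAAAG and 1 ATTTGCAT, and that of Nrarp 1 ATGCAAAT. Among the promoters of the private sites, Ifnar1 held 1 ACAATG, Nras and Enoph1 held 1 CTTTGT each, and Hist1h4c, Traf7 and Rps7 held no match in this window.

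Most Sox2 sites were held by both lists. The Chaf1a.2122 list had 19319 positions (95% Poisson interval 19048 to 19593) and the Renilla list 17681 (17421 to 17944). They shared 13482 sites, 57.5% of all (Clopper-Pearson 56.8 to 58.1). Another 5803 sites, 24.7% of all, were of Chaf1a.2122 only, and 4171, 17.8%, were of Renilla only. Shared sites took up 70.0% of the Chaf1a.2122 positions and 76.4% of the Renilla positions. The surplus of private sites in the knockdown list follows from its greater length, because nearly every shared site takes 1 position from each list. Lists of equal length must therefore leave near-equal private counts. With the best 17681 positions of each list by the authors' score, 12984 sites were shared, 4667 were of Chaf1a.2122 only and 4669 of Renilla only, 20.9% of 22320 sites each. From a lower bound of 2 in enrichment upwards, 11071 Chaf1a.2122 positions and 11545 Renilla positions were kept, so the Renilla list was the longer. Private sites followed these lengths, with 3629 of Chaf1a.2122 only and 4105 of Renilla only. The Chaf1a.2122 list reached further down in the authors' score, to 12.4 against 13.3, and 13.5% of its positions had an enrichment lower bound under 1, against 8.35% in the Renilla list. Since the depth of the libraries is unknown, absence from a list says only that a position did not reach its threshold. The part of depth in these counts was not tested.

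**Figure D1:**
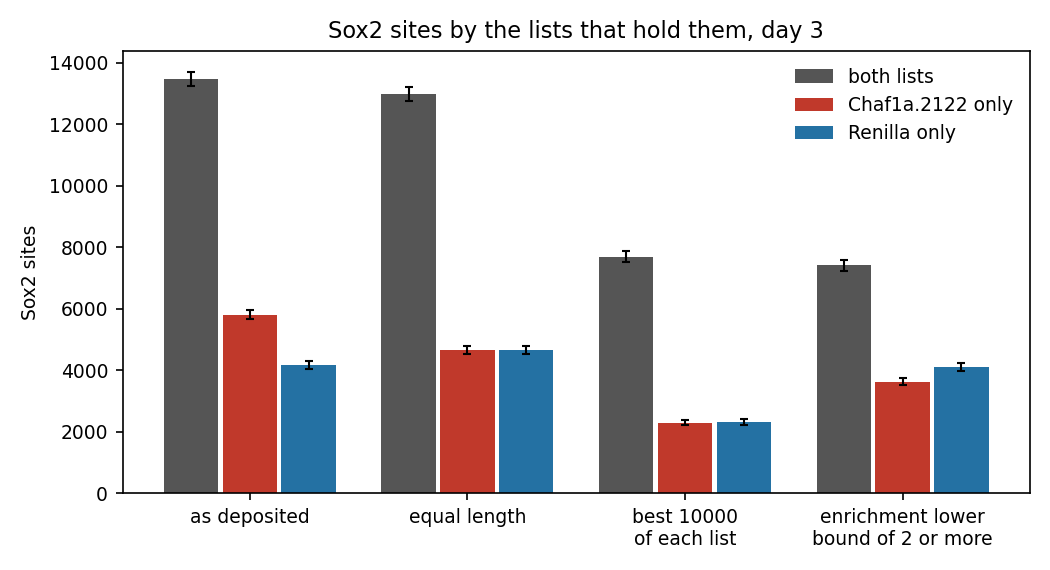
Number of Sox2 sites (y axis) held by both lists, by Chaf1a.2122 only or by Renilla only under 4 choices of positions (x axis), with exact 95% Poisson intervals. Private sites number 5803 and 4171 as deposited, 4667 and 4669 at equal length, and 3629 and 4105 from a lower bound of 2 in enrichment upwards.

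Few shared sites lay near the limit of joining. In 13428 shared sites each list had 1 position, and these lay a median of 29 bp apart (quartiles 13 and 53), with 72.7% within 50 bp. Near the limit, 127 shared sites had positions over 150 and up to 200 bp apart. Just outside it, 33 sites of Chaf1a.2122 only and 34 of Renilla only had a position of the other list at over 200 and up to 250 bp. A typical private site was far from any position of the other list, with a median of 23.3 kb (21.8 to 24.4) for Chaf1a.2122 only and 21.9 kb (20.3 to 23.2) for Renilla only. Private sites were spread over all 20 chromosomes. Of all private sites 58.2% were of Chaf1a.2122 as deposited. The share at equal length was 50.0%, which lists of equal length require. By chromosome, the latter share ran from 45.5% (40.1 to 51.0) on chromosome 17 to 55.6% (50.3 to 60.7) on chromosome 15.

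The strongest sites were shared, and private sites came from the weak end of each list. None of the 1999 sites formed by the best 2000 positions of either list was private, which allows a share of up to 0.15%. Among the best 5000, 25 sites were private to Chaf1a.2122 and 33 to Renilla. Among the best 10000, the numbers were 805 and 643. In the Chaf1a.2122 list the private share rose from 0.3% at ranks 2001 to 3000 to 26.7% at ranks 9001 to 10000 and 71.1% at ranks 18001 to 19000. In the Renilla list it rose from 0.3% over the same first ranks to 21.9% and, at ranks 16001 to 17000, 65.4%. Within the Chaf1a.2122 list the median enrichment over input was 8.63 at shared sites and 5.12 at private ones. Within the Renilla list the medians were 9.39 and 5.73. Scores of shared sites in one list followed those in the other with a Spearman rho of 0.77 over 13482 sites, a description over sites of the same libraries.

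The best shared sites lay far from listed start sites, with few exceptions. This held for shared sites as a whole, of which 9.17% lay within 10 kb of a listed start. The best by the sum of ranks was on chromosome 1 at 135294441, 263021 bp from the nearest listed gene Zbed6, with rank 2 in the Chaf1a.2122 list and rank 1 in the Renilla list. The next, on chromosome 10 at 44436603, was 258110 bp from Prdm1, which encodes a repressor needed for plasma cells and germ cells, and it had ranks 1 and 2. A site on chromosome 15 at 39478355 lay 155 bp from a listed enhancer assigned to Rims2, with ranks 3 and 9. Nrarp, whose promoter is printed above, had a site on chromosome 2 at 25036212, 65 bp from its start. It had rank 5 in the Chaf1a.2122 list, with an enrichment of 95.2, and rank 8 in the Renilla list, with one of 68.5. Other shared sites within 1 kb of a start belonged to Otud7b, a deubiquitinase, Mtf2, a partner of Polycomb complex PRC2, and Pipox. Their ranks were 18 and 27, 58 and 58, and 55 and 64 in the Chaf1a.2122 and Renilla lists. Dido1, Slc39a14, Mobp, Rif1, Notch1 and Tmbim1 completed the 10 best promoter sites of this class, with ranks from 95 to 455 in the Chaf1a.2122 list and 59 to 416 in the Renilla list. All 10 were in the Chaf1a.166 list too.

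The best sites of Chaf1a.2122 only started at rank 2108. That site, on chromosome 11 at 24051810 and 380840 bp from Rel, had a score of 47.7 and an enrichment of 16.2. The third best site of Renilla only, at 24051496 with a score of 42.1, was 314 bp away, so the lists held neighbouring positions of 1 locus that were not joined. The next sites of Chaf1a.2122 only were nearest to Dlc1, Aspa and Mre11a, at 348293, 67086 and 453658 bp. Nearer to its gene was the site 68 bp from the start of Etv4, an ETS factor and FGF target, on chromosome 11 at 101646692, with rank 3735 and an enrichment of 4.71. Another was 4038 bp from the start of Sox2 itself, on chromosome 3 at 34552964, with rank 4242 and an enrichment of 4.30. The closest Renilla position to that start was 89809 bp away. All of the 10 best sites of Chaf1a.2122 only had a Chaf1a.166 position within 200 bp, and the Chaf1a.166 ranks at Etv4 and Sox2 were 7561 and 4136.

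Beside Etv4, the best promoter sites of Chaf1a.2122 only, within 1 kb of a start, were at Senp3, a SUMO protease, Hnrpdl, an RNA-binding protein, and Hist1h4c. The scores there were 31.8, 29.8 and 29.7. Vipar, Slc25a1, Rnf10, Vangl1, Gm11346 and Rrm2 followed with scores from 25.1 down to 23.2. Slc25a1 is the mitochondrial citrate carrier, Vangl1 a protein of planar cell polarity and Rrm2 the small subunit of ribonucleotide reductase. Of these 10 sites, 9 had a Chaf1a.166 position, and Hnrpdl had none. Over all sites of this class within 500 bp of a listed start, 50 of 193 had one, 25.9%.

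The best sites of Renilla only started at rank 2667. They lay 83367 bp from Psmd7, a proteasome subunit, with a score of 44.0, and 45729 bp from Cd55, a complement regulator, with a score of 43.2. Sites nearest to Ankrd11, Rad51l1, Fscn1, AI314976, Cep55, Plk2 and Dock1 followed, between 31200 bp (Cep55) and 1701152 bp (AI314976) from a listed start. The site nearest to Cep55 lay 1036 bp from a listed enhancer. Of the 10 best, 7 had a Chaf1a.166 position. The best promoter site was 10 bp from the start of Rps7, with a score of 29.8 and rank 5323. Tbc1d10b, Lipt1, Tbc1d2, Csnk1g2, Prickle2, Gm949, Zfp90, Flywch1 and Trp53inp1 followed, with scores from 29.0 down to 22.8. Csnk1g2 is a casein kinase, Prickle2 a protein of planar cell polarity and Trp53inp1 a target of p53. Of these 10 promoter sites, 6 had a Chaf1a.166 position. Over all sites of Renilla only within 500 bp of a listed start, 36 of 116 had one, 31.0%.

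To see whether private sites recur in a library that did not define the classes, the Chaf1a.166 list was examined. Of the shared sites 81.6% (80.9 to 82.2) had a Chaf1a.166 position within 200 bp. Of the sites of Chaf1a.2122 only 29.3% (28.2 to 30.5) had one, and of the sites of Renilla only 28.5% (27.1 to 29.9). As deposited the intervals of the private classes overlapped. From a lower bound of 3 in enrichment upwards they did not, with 66.8% (65.0 to 68.6) for Chaf1a.2122 only and 73.1% (71.6 to 74.5) for Renilla only. By construction, private sites under such a bound include ones that the other list holds below the bound. At equal length the shares were 32.5% (31.2 to 33.9) and 30.1% (28.8 to 31.4). The share fell with rank in every class. At ranks 2501 to 5000, 22 of 24 private sites of the Chaf1a.2122 list and 25 of 33 of the Renilla list had such a position. At ranks 5001 to 7500 of the Chaf1a.2122 list the share was 70.9% (64.6 to 76.7) for private sites and 90.2% for shared ones. At ranks 5001 to 7500 of the Renilla list it was 62.4% (54.6 to 69.8) and 90.1%. Beyond rank 10000, a comparison added after the values were seen, it was 24.8% for Chaf1a.2122 only and 24.4% for Renilla only, beside 57.5% and 57.7% for shared sites at those ranks. Where it had one, a site of Chaf1a.2122 only was at a median rank of 11410 of 15888 in the Chaf1a.166 list, and a site of Renilla only at 11732. Shared sites were at a median rank of 5608.

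**Figure D2:**
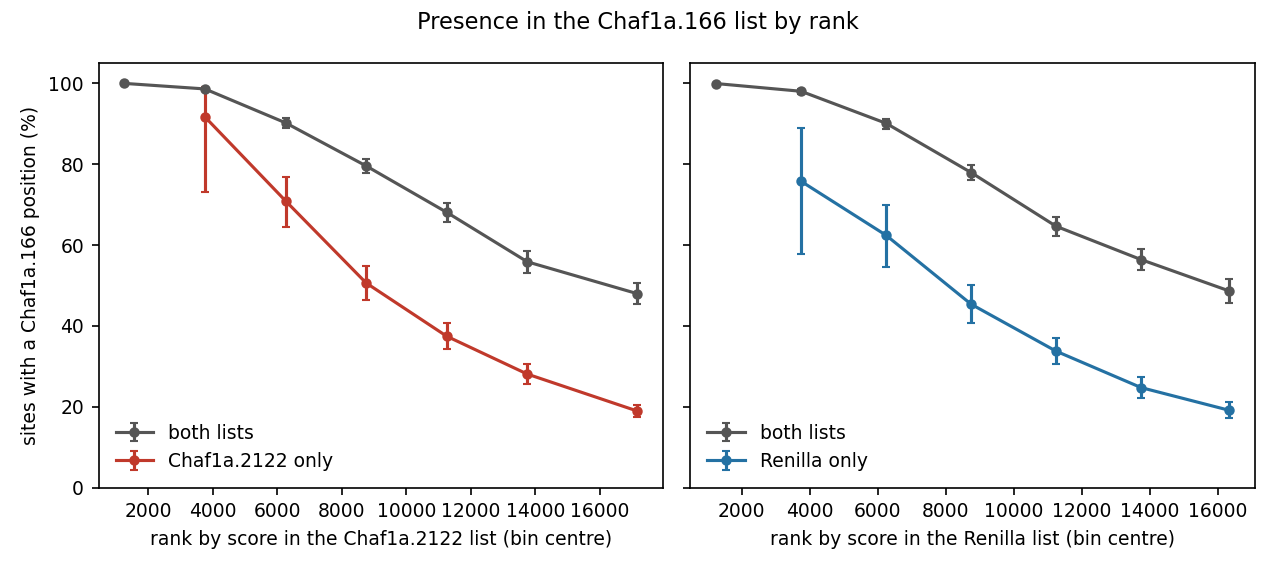
Share of sites (y axis, %) with a Chaf1a.166 position within 200 bp, by rank in the Chaf1a.2122 list (left) and the Renilla list (right), with exact 95% binomial intervals; bins with under 20 sites are left out. Both private classes fall from over 60% at ranks 5001 to 7500 to about 19% (19.0% and 19.2%) in the last bin, below the shared sites throughout.

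Distances to the start sites and enhancers of the Sono-seq table were taken next. This table lists 5513 start sites of 5154 genes and 14265 enhancers of embryonic stem cells, so regions used in fibroblasts alone are not covered. Sites of Chaf1a.2122 only lay nearer to listed start sites, with a median of 149 kb (139 to 158). Shared sites lay at 178 kb (171 to 185) and sites of Renilla only at 180 kb (168 to 192). At equal length the 3 medians were 141, 177 and 181 kb. Medians to the nearest listed enhancer were 124 kb (114 to 132) for Chaf1a.2122 only, 147 kb (140.2 to 154) for shared sites and 148 kb (135 to 162) for Renilla only. Beyond rank 10000 the interval of Chaf1a.2122 only (148 kb, 138 to 158) stayed under that of shared sites in the same list (169.9 kb, 159.7 to 182). The corresponding intervals to the nearest enhancer overlapped, with 123.9 kb (114.2 to 132.3) for Chaf1a.2122 only and 136 kb (127 to 149) for shared sites. Ranks were not matched within this part of the list. From rank 15001 down stood 2797 of its 4998 sites of Chaf1a.2122 only and 1515 of its 4297 shared sites. In the Renilla list the medians to a start site were 174 kb for private and 168 kb for shared sites, with overlapping intervals.

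**Figure D3:**
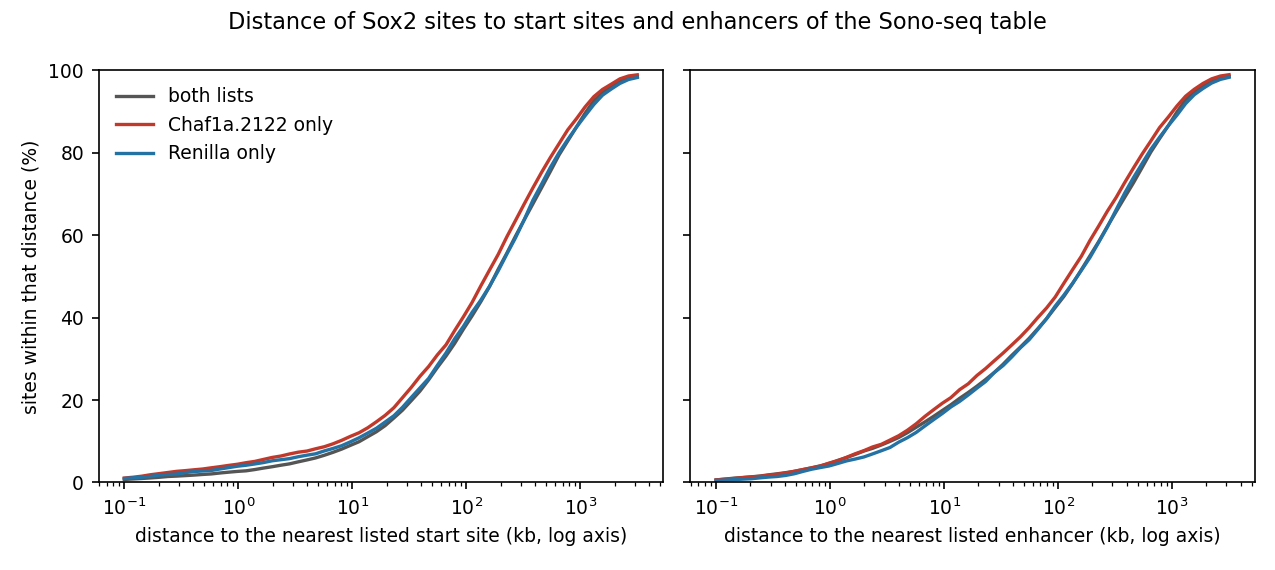
Cumulative share of sites (y axis, %) within a given distance (x axis, kb, log scale) of the nearest listed start site (left) and enhancer (right) for each class. For start sites the curve of Chaf1a.2122 only runs above the others from 100 bp upwards, and for enhancers from 1393 bp upwards. Within 50 kb of a start site lie 29.0% of its sites, against 26.03% of shared sites and 26.5% of Renilla only.

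At promoters, both private classes exceeded the shared sites. Within 500 bp of a listed start site lay 193 sites of Chaf1a.2122 only, 3.33% (2.88 to 3.82). The numbers were 264 of the shared sites, 1.96% (1.73 to 2.21), and 116 of Renilla only, 2.78% (2.30 to 3.33). This share also depended on rank. Among shared sites it was 0.76% (0.46 to 1.19) at the best 2500 ranks of the Chaf1a.2122 list and 2.57% (1.84 to 3.50) from rank 15001 down. Beyond rank 10000 it was 3.50% (3.01 to 4.05) for Chaf1a.2122 only and 2.58% (2.13 to 3.10) for shared sites of that list, with overlapping intervals. In the Renilla list the values at those ranks were 2.75% (2.24 to 3.34) and 3.05% (2.55 to 3.62). Within 500 bp of a listed enhancer lay 2.74% of shared sites, 2.76% of Chaf1a.2122 only and 2.16% (1.74 to 2.65) of Renilla only.

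The classes did not use sequence, so motifs were counted in the promoters with a site of each class. Of promoters with a shared site within 500 bp and 1 RefSeq start, 69 of 169 held ACAAAG or ACAATG on either strand, 40.8% (33.3 to 48.6). For Chaf1a.2122 only it was 26 of 124, 21.0% (14.2 to 29.2), and for Renilla only 24 of 69, 34.8% (23.7 to 47.2). Of all promoters of genes of the table with 1 RefSeq start, 18.9% held such a motif (605 of 3208), and of all 32851 RefSeq promoters 28.6%. The interval of Chaf1a.2122 only lay below that of shared sites and held the value of the table, and the interval of Renilla only overlapped both. A site within 500 bp can lie outside the 300 bases searched. With the site inside that window and chromosome 18 left out, 58 of 119 shared promoters held either motif, 48.7% (39.5 to 58.1). For Chaf1a.2122 only it was 17 of 80 (12.9% to 31.8%), and for Renilla only 15 of 42 (21.6% to 52.0%). Of the printed promoters, those of Mobp, Pipox, Ifnar1, Nras and Enoph1 hold either motif, and those of Nrarp, Hist1h4c, Traf7 and Rps7 do not. Only exact matches were counted. Beside its octamer the Nrarp promoter holds tattgt, 1 letter from CATTGT, and that of Pipox acaata, 1 letter from ACAATG. Promoters of private sites hold near matches too. Hist1h4c and Traf7 hold ccaatg, 1 letter from ACAATG, and Rps7 holds ctttct, 1 letter from CTTTGT. Such near matches are not in these counts. Taken alone, ACAAAG was found in 17.7% (11.5 to 25.6) at Chaf1a.2122 only, 26.6% (20.1 to 34.0) at shared sites and 26.1% (16.3 to 38.1) at Renilla only, with overlapping intervals, against 13.2% in the table and 18.7% of all RefSeq promoters. ACAATG was found in 4 of these 124 promoters, 3.23% (0.89 to 8.05), against 17.8% (12.3 to 24.4) at shared sites, 10.1% at Renilla only and 6.76% in the table (12.6% of all RefSeq promoters). Beyond rank 10000 the share with either motif was 35.3% (24.1 to 47.8) for shared sites of the Chaf1a.2122 list and 20.7% (13.7 to 29.2) for Chaf1a.2122 only, with overlapping intervals. In the Renilla list it was 33.7% and 33.9% at those ranks. At equal length the shares were 40.7%, 21.4% and 35.1%. Among promoters whose site had a Chaf1a.166 position they were 42.1% (33.6 to 51.0), 29.0% (14.2 to 48.0) and 35.3% (14.2 to 61.7), with overlapping intervals. The octamer ATGCAAAT was in 10 of the 169 shared promoters, 3 of the 124 and 4 of the 69, against 2.15% in the table and 1.74% of all promoters. TGACTCA was in 6, 4 and 3 of them, with 3.24% in the table and 5.20% of all promoters. A match is a description of the letters and not a bound site.

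**Figure D4:**
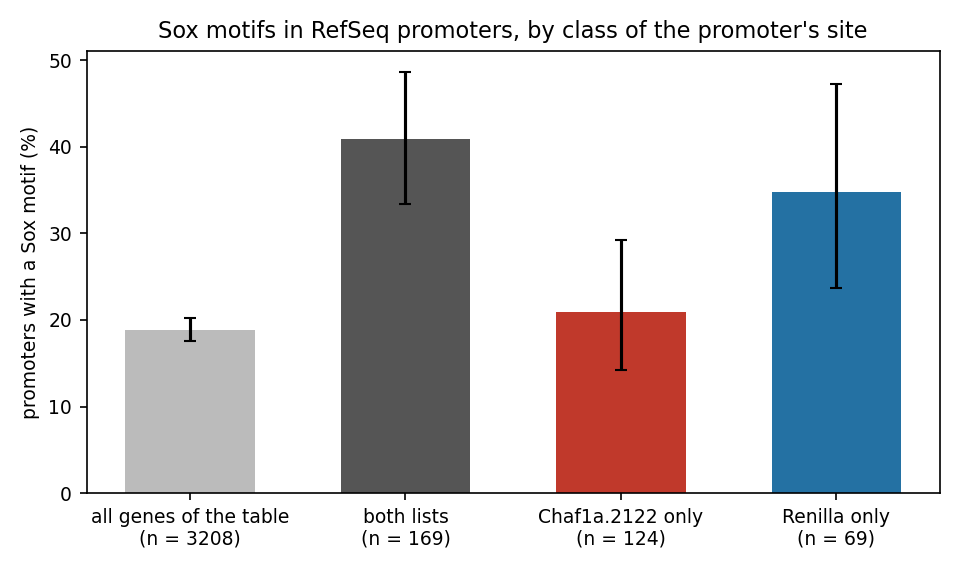
Share of RefSeq promoters (y axis, %) that hold either Sox motif on either strand, for all genes of the Sono-seq table with 1 RefSeq start and for promoters with a site of each class within 500 bp, with exact 95% binomial intervals. Promoters of Chaf1a.2122 only (21.0%) stand near the table (18.9%), below those of shared sites (40.8%), and the wide interval of Renilla only overlaps both classes.

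Genes were then assigned to classes where a site lay within 10 kb of one of their start sites. Of 5154 genes, 1192 (23.1%) were near a shared site, 749 (14.5%) near a site of Chaf1a.2122 only and 468 (9.08%) near a site of Renilla only. Near Chaf1a.2122-only sites and no other class were 466 genes (9.04%), and near Renilla-only sites and no other 254 (4.93%). At equal length these were 382 and 310. All counts of lists below are of members in the table, as deposited, to be read beside these shares.

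Of 38 pluripotency genes in the table, 12 were near a shared site, 3 near one of Chaf1a.2122 only and 0 near one of Renilla only. Shared sites stood near Pou5f1, which encodes Oct4, at 1973 bp, and near Fgf4, a signal of the early embryo, at 3019 bp with ranks 153 and 191. Nanog had 2 shared sites, at 4504 and 4873 bp. Gdf3, Klf2, Fbxo15, L1td1, Lin28b, Upp1, Cdh1, Trim28 and Zscan10 also had 1 or more. Sox2 and Klf4 were the 2 members near Chaf1a.2122 only, also at equal length. The Klf4 site, at 6219 bp and rank 11130, had no Chaf1a.166 position, and the nearest Renilla position was 150184 bp from the start. Both genes are also part of the induced cassette. A second Zscan10 site, at 1633 bp and rank 18480, was of Chaf1a.2122 only.

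Of 12 epithelial genes, 5 were near a shared site (among them F11r, Cldn4, Pkp2 and Cdh1, members of tight junctions, desmosomes and adherens junctions). Cldn6, a claudin, had a site of Chaf1a.2122 only at 3465 bp, rank 11607, and a Chaf1a.166 position. Ctnna1, the alpha-catenin, had one at 477 bp, rank 15955, without one. None was near Renilla only. Only 4 fibroblast genes were in the table. Fn1, fibronectin, had 2 shared sites and 1 of Chaf1a.2122 only at 2311 bp, rank 8290. Tead1, a partner of YAP, had 1 shared site and 2 of Chaf1a.2122 only. Fbln1, fibulin, had 1 of Renilla only at 3030 bp, rank 16916.

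Of 12 AP-1 and immediate early genes, 5 were near a shared site and 4 near each private class. Fos, an AP-1 subunit, had a shared site at 85 bp, Junb, another, one at 1297 bp with ranks 2212 and 2055, and Dusp1, Dusp6 and Klf6 had 1 or more. Ier2 and Zfp36 were near Chaf1a.2122 only, and Ier3 and Ier5 near Renilla only, at distances from 2458 to 8198 bp.

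In the Notch list, 6 of 11 genes were near a shared site, among them the receptors Notch1 (348 bp, ranks 455 and 238) and Notch2 (822 bp), the ligand Jag1 (242 bp), Nrarp, the coactivator Maml1 (37 bp) and the repressor Hes6 (70 bp). Rbpj, the DNA-binding partner of Notch, had only a site of Renilla only, at 9703 bp. In the Wnt list, 10 of 19 genes were near a shared site, 4 near Chaf1a.2122 only and 1 near Renilla only. The shared ones included the receptors Fzd7 (3067 bp, ranks 635 and 863), Fzd2 and Fzd5, beta-catenin (Ctnnb1) and the nuclear factor Tcf7l1 (1410 bp, ranks 1107 and 471). The kinase gene Gsk3a had a site of Chaf1a.2122 only at 639 bp. The list also counts Tcf3, with such a site at 337 bp, but the gene of that symbol in the table lies on chromosome 10 and encodes the bHLH factor E2A, while the Wnt factor of that older name is Tcf7l1. The FGF and MAPK list had 6 of 17 genes near a shared site, 6 near Chaf1a.2122 only and 4 near Renilla only. Its feedback inhibitors Dusp6, Spry4 and Spred2 had shared sites at 74, 254 and 158 bp. The receptor Fgfr1 (5691 bp) and the target Etv4 were near Chaf1a.2122 only, and Etv5, another ETS target, had 1 private site of each hairpin, at 1005 bp (Chaf1a.2122) and 328 bp (Renilla).

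In the TGF-beta and BMP list, 6 of 21 genes were near a shared site, 4 near Chaf1a.2122 only and 3 near Renilla only. Id1 and Id3, BMP targets, had 3 and 4 shared sites. Id2 had 2 sites of Chaf1a.2122 only, at 2958 and 5033 bp, and Smad1, a signal transducer, 1 of Renilla only at 8064 bp. Smad7, an inhibitor of the pathway, had 2 shared sites and 1 private site of each hairpin, and the one of Chaf1a.2122 ranked 4054 with an enrichment of 5.12. Tgif1, a repressor of TGF-beta targets, had 2 sites of Chaf1a.2122 only and 3 of Renilla only within 10 kb, beside 1 or more shared sites. In the Hippo list, 6 of 14 genes were near a shared site, 5 near Chaf1a.2122 only and 2 near Renilla only. The shared ones were Nf2 (159 bp), Ctgf (59 bp), Amotl2, Cyr61, Tead1 and Yap1. Around Cyr61, a matricellular target of YAP, 3 sites of Chaf1a.2122 only lay at 212, 759 and 1561 bp, with ranks 17009, 16571 and 13257 and no Chaf1a.166 position. Wwtr1, which encodes the coactivator TAZ, had a site of Chaf1a.2122 only at 3221 bp, rank 7090, and the kinase gene Stk3 one at 6872 bp, rank 8631.

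Genes of histone chaperones and chromatin assembly included 4 of 11 near a site of Chaf1a.2122 only and no other, against 9.04% of all genes, and 0 near Renilla only. Chaf1b, the middle subunit of CAF-1, had one on chromosome 16 at 93884087, 58 bp from its start, with rank 17845. Nasp, a chaperone of H3 and H4, had one at 747 bp, rank 18284, and Anp32e, a chaperone of H2A.Z, one at 234 bp, rank 15142. Pcna, the replication clamp that recruits CAF-1, had one at 9025 bp, rank 12372. The sites of Chaf1b, Nasp and Anp32e had a Chaf1a.166 position and that of Pcna had none. All 4 were weak, and at equal length those of Chaf1b and Nasp fell out of the list, which left 2 of 11 genes (Anp32e and Pcna). Rbbp4, the small subunit of CAF-1, Set and Npm1 were near shared sites.

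Of 34 chromatin regulators, 14 were near a shared site, 6 near Chaf1a.2122 only and 1 near Renilla only (Smarcb1, a subunit of the BAF remodeller, with 2 such sites beside a shared one). Among the shared were Mtf2, Kdm1a, a demethylase, with ranks 1703 and 1874, and Trim28, a corepressor, with 2 sites. Kdm2b, Mll1, Hdac1 and Dnmt1 were near Chaf1a.2122 only and no other. The best of these sites was 1601 bp from the start of Hdac1, a histone deacetylase, at rank 8479. At equal length Hdac1 and Mll1 were left, and Cbx3, a heterochromatin protein, became a gene of Renilla only. Of 28 cell cycle and replication genes, 6 were near a shared site, 6 near Chaf1a.2122 only and 5 near Renilla only. E2f3 (86 bp, rank 10675), Mcm10 (139 bp, rank 16454), Bub1 and Pcna were near Chaf1a.2122 only and no other. E2f1 (1406 bp, rank 17024) and Aurka (393 bp, rank 12218) were near Renilla only and no other. Of the markers of other lineages in the table, none of 3 neural genes had a site, the endothelial receptor gene Tek had 2 shared sites and 1 of Chaf1a.2122 only, the macrophage gene Cd68 had 1 private site of each hairpin, and the muscle regulator gene Mef2d had 1 of Renilla only.

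As deposited, the genes with the most private sites of Chaf1a.2122 within 10 kb were replication-dependent histone genes. Hist1h1b, Hist1h2an, Hist1h2bp and Hist1h3i, neighbours on chromosome 13, each had the same 5 such sites within 10 kb, between 21870947 and 21880534, with ranks from 14177 to 18400. The 2 weakest, at ranks 17700 and 18400, lie outside the 17681 positions of equal length, which leaves 3 sites. Of the 5, one lay 20 bp from the start of the linker histone gene Hist1h1b. Another, the one at rank 17700, lay 80 bp from that of Hist1h2an. A shared site between them, at 21875456 and 190 bp from Hist1h3i, had rank 3510 in the Chaf1a.2122 list and 3953 in the Renilla list. Of the other genes with many sites as deposited, Nhsl1 had 4 of Chaf1a.2122 only. Acot7, Avpi1, Cnn3, Dpysl3 and another histone gene, Hist1h4j, had 4 shared sites each. Plin2, a protein of lipid droplets, and Tgif1 had 3 each of Renilla only. All genes whose symbol begins with Hist were then counted, a choice made after these values were seen. The table holds 57 of them. Over all genes of the table, 23.1% were near a shared site, 14.5% near one of Chaf1a.2122 only and 9.08% near one of Renilla only. As deposited, the counts among the Hist genes were 42, 34 and 17 in the same order. These genes are clustered and share sites, which numbered 24, 16 and 6, and a Chaf1a.166 position stood at 21, 4 and 2 of them. At equal length 41, 24 and 17 of the Hist genes were near these classes, and the numbers of sites were 22, 10 and 8. Beside Hist1h4c, with rank 5208 at 142 bp, a private site of Chaf1a.2122 lay 86 bp from Hist1h2ae and 93 bp from Hist1h2bg, at rank 10358, with rank 5084 in the Chaf1a.166 list.

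Sono-seq is a measure of open chromatin, which breaks more readily when fixed chromatin is sonicated. The table gives 1 value per region for CAF-1 knockdown and 1 for Renilla, from 3 libraries each, in an unknown unit, so a log2 ratio carries no error. The titles of the knockdown libraries say CAF-1 and name no hairpin, so they need not be of Chaf1a.2122. At enhancers with a site within 500 bp, medians of the log2 ratio of CAF-1 over Renilla were 0.010 (-0.014 to 0.044, n = 360) for shared sites, -0.0020 (-0.031 to 0.047, n = 147) for Chaf1a.2122 only and 0.031 (-0.044 to 0.060, n = 82) for Renilla only. Over all enhancers the median was 0.028, and 55.3% were higher in CAF-1. At promoters the medians were -0.017 (-0.058 to 0.027, n = 289), -0.011 (-0.031 to 0.035, n = 212) and -0.091 (-0.133 to -0.040, n = 119) in the same order. Over all promoters it was -0.0093, and 48.2% were higher in CAF-1. At promoters of Renilla only, 43 of 119 were higher in CAF-1, 36.1% (27.5 to 45.5), against 49.1% at those of Chaf1a.2122 only. Within 1000 bp in place of 500 bp the median of Renilla only was -0.053 (-0.100 to 0.0025, n = 159). Intervals of medians come from order statistics and treat regions as independent. The spread between regions, with an SD of 0.21 at promoters of Renilla only, was larger than any of these medians.

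**Figure D5:**
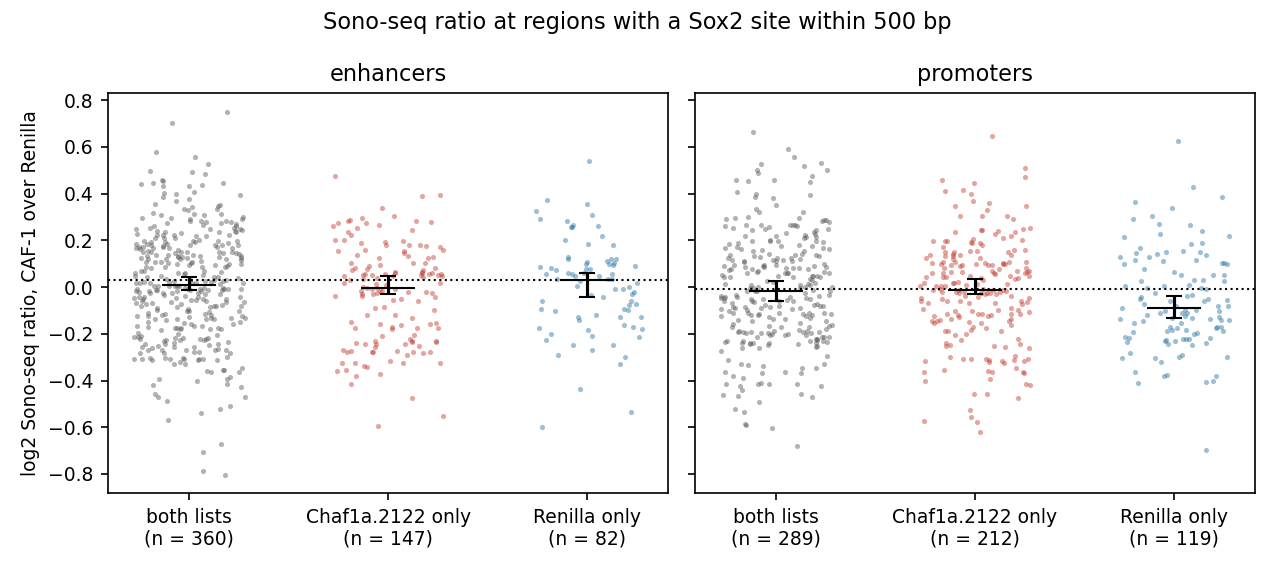
Log2 ratio of the deposited Sono-seq values, CAF-1 over Renilla (y axis), at enhancers (left) and promoters (right) with a site of 1 class within 500 bp (x axis); points are regions, bars the median with its 95% interval, dotted lines the median of all regions. Promoters of Renilla only have a median of -0.091, below the dotted line at -0.0093, with wide overlap between the classes.

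Single promoters with a private site differed in both directions. At Etv4 the Sono-seq value was 0.129 in CAF-1 and 0.189 in Renilla, a log2 ratio of -0.56. At Cldn6 it was 0.192 and 0.128, a log2 ratio of 0.59. The start of Chaf1b had 0.146 and 0.134, that of Sox2 0.154 and 0.141, and that of Klf4 0.169 and 0.173. Private sites of Chaf1a.2122 thus lay within 10 kb of promoters whose Sono-seq value was higher as well as lower in CAF-1, whose hairpin is not named.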

How the data were processed

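Sox2 ChIP-seq lists of day 3 were analysed, with 1 immunoprecipitate and its input per hairpin, as the labels state. The submitters' processing notes name mm9, Bowtie and BWA 0.7.8, with no roles, and the peak caller was not given in the sources used here. A deposited position carries, per the file headers, a score, an enrichment ratio (immunoprecipitate to input) with its lower bound, an E-value and a q-value called FDR. All deposited positions had an E-value of at most 10. These values of the authors were used only to rank, filter or describe positions within their own list, and read depth is unknown. The Sono-seq values are deposited per region and were treated as a score, since their unit and the way 3 libraries became 1 value are not given in the sources used here. That table (22594 rows) also gave start sites, enhancers and gene names in mm9. Dates in place of symbols (136 rows, 7 genes) were restored through a RefSeq table of GRCm38.p6 used for names only, which held 5411 of 5510 transcripts. Promoter sequences came from RefSeq, build GRCm38.p6.

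Sites, classes, distances and genes within 10 kb were computed with Python 3.11.15, pandas 2.3.3, numpy 2.4.6 and scipy 1.17.1. Ranks are by score within a list, 1 being the best, and a shared site takes the best rank of its positions in each list. Intervals are 95%, Poisson for counts and Clopper-Pearson for shares, and cover counting error only. No test was made, because each hairpin had 1 library. The comparison and the 16 gene lists were chosen with earlier results of these data known, so they are no independent evidence. The name of 1 list member that enters a count is not reported here. Genes were named by rule: list members with a site within 10 kb, the nearest genes of the 10 best sites and 10 best promoter sites (within 1 kb) of each class, and the 5 genes with the most sites of a class. Printed promoters are the 3 best per class that met the stated conditions, with chromosome 18 left out. On simulated lists the joining gave 100% of 23000 sites their right class, with sites far apart and positions moved at random (SD 30 bp). Alternatives were equal length, joining at 100, 500 or 1000 bp, one-to-one matching, enrichment lower bounds of 2 and 3, the best 10000 positions, gene distances of 2 and 50 kb, and Sono-seq values rescaled to 1 median. Values beyond rank 10000, motif shares by class, counts of lists at equal length, and Chaf1a.166 shares under other joining distances, bounds and list lengths were added after seeing the data.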

Additional observations from a re-analysis of the deposited data

How the results depend on the processing

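With positions of a lower bound of at least 2 in enrichment, 7414 sites were shared, 3629 were of Chaf1a.2122 only and 4105 of Renilla only. With a bound of at least 3 the counts were 4229, 2711 and 3471, and with the best 10000 positions of each list 7692, 2299 and 2302. Fewer positions enter by construction, and the list that keeps more positions has more private sites. A position above the bound counts as private where its partner is below it. Equal length, joining distances of 100, 500 and 1000 bp and one-to-one matching moved each count by less than 1.5 times. With a bound of at least 2 the median distance of shared sites to a listed start was 188 kb and their share within 500 bp of a start 1.65%. The cause was not tested. Genes near shared, Chaf1a.2122-only and Renilla-only sites numbered 523, 386 and 236 within 2 kb, and 2944, 1982 and 1379 within 50 kb. The share of sites with a Chaf1a.166 position moved from 81.6% to 83.1% for shared sites at equal length. For Chaf1a.2122 only it was 30.9% within 500 bp, 32.5% at equal length and 24.8% beyond rank 10000. For Renilla only it was 30.3%, 30.1% and 24.4%. With joining at 100 bp the shares were 82.4%, 33.9% and 34.6% for shared, Chaf1a.2122-only and Renilla-only sites. They were 92.5%, 53.9% and 56.6% with a bound of at least 2, 96.7%, 66.8% and 73.1% with a bound of at least 3, and 96.3%, 68.9% and 66.6% with the best 10000 positions. Rescaling the Sono-seq values moved the median at shared enhancers to -0.0077 and at promoters of Renilla only to -0.109, each by less than the spread between regions. No paired analysis was possible because each hairpin had 1 immunoprecipitate. The limits are 1 library per hairpin, unknown read depth, a table of regions from embryonic stem cells, and promoter sequences of another build than the positions.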
